A study of Mus musculus with 6 samples.

Results

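Goblet cell genes, 10 genes that mark the mucus-secreting cells of the intestinal lining, were followed through 6 messenger RNA libraries of sorted intestinal stem cells. They were chosen by name (Muc2, Fcgbp, Clca3, Spink4, Retnlb, Tff3, Agr2, Zg16, Spdef and Creb3l1), and all 10 were found, with 1 RefSeq entry each, among the 16819 gene symbols of the table that holds RingKO and WT and the 15915 symbols of the table that holds Bcat_RingKO and Bcat. The cells were Lgr5-GFP+ cells sorted from small intestinal crypts of C57BL/6 mice that carried Lgr5Gfp-CreERT2, in which the stem cell gene Lgr5 drives both the fluorescent marker and a tamoxifen-inducible Cre recombinase. All mice received 3 tamoxifen injections, and the crypts were taken 6 days after injection. The RingKO group (2 libraries) was Lgr5Gfp-CreERT2 Ring1a-/- Ring1bf/f, so Ring1a was deleted throughout the animal and Ring1b was floxed for deletion in Cre-expressing cells, and the WT group (2 libraries) carried Lgr5Gfp-CreERT2 alone. The Bcat_RingKO library was Lgr5Gfp-CreERT2-Ctnnb1-ex3 Ring1a-/- Ring1bf/f and the Bcat library was Lgr5Gfp-CreERT2-Ctnnb1-ex3, 1 library each, where Ctnnb1-ex3 is an allele of the beta-catenin gene that gives a stabilised protein once Cre acts. Cre is active only in cells that express Lgr5, and descendants of recombined cells keep the recombined alleles. The labels used here do not give age, sex or the number of mice behind a library, so the spread between libraries may be technical.

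Goblet cells are one of the secretory lineages that arise from intestinal stem cells. Commitment to the secretory fate depends on the transcription factor Atoh1, held in check by Notch signalling, and maturation of goblet cells depends on Spdef. Mature goblet cells pack the gel-forming mucin Muc2 into granules and release it together with proteins that cross-link, process or accompany the mucus. Ring1a (gene symbol Ring1) and Ring1b (Rnf2) are the catalytic subunits of Polycomb repressive complex 1, which places ubiquitin on histone H2A and keeps developmental genes silent. The comparison of RingKO with WT asks what loss of this complex does to the transcripts of the stem cell compartment, and the Bcat_RingKO to Bcat comparison asks the same where Wnt signalling is constitutively active.

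Libraries held 2911422 (A) and 2651201 (B) reads in RingKO, 6753789 (A) and 6294932 (B) in WT, 4470853 in Bcat_RingKO and 922153 in Bcat. The reads of the single RingKO and WT libraries were recovered from deposited group means, so the letters A and B only name them, with no link to the replicate numbers. Normalized reads below are recovered reads divided by the authors' size factor of the library, while the deposited means were made from reads plus 1. Ring1 had 9 and 11 reads in RingKO, against 484 and 363 in WT, and 43 in Bcat_RingKO, against 24 in the much shallower Bcat library. Rnf2 had deposited means of 176 normalized reads in RingKO, against 158 in WT (adjusted p of 1 in the authors' deposited table), and 546 reads in Bcat_RingKO, against 78 in Bcat, a ratio of 1.40 after scaling. Rnf2 reads from outside the floxed part do not check that deletion. Stem cell markers were present in every library, with Lgr5 at 655 and 319 normalized reads in RingKO, against 602 and 650 in WT, and Olfm4 at 13530 and 4502 in RingKO, against 19237 and 23518 in WT. Reads of the sorted cells also came from goblet, Paneth and enterocyte genes, so the libraries were not free of transcripts of differentiated cells. In bulk libraries fewer cells of a type and less RNA per cell cannot be told apart.

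Promoter sequences are shown for Muc2, the product that defines the lineage, and Spdef, its maturation factor, because both differed more than 2-fold between the RingKO libraries. They are RefSeq windows on GRCm38.p6 from 250 bases before to 50 bases after the gene's start, read 5′ to 3′ on the gene's strand, at chr7:141690090-141690389 (plus strand) for Muc2 and chr17:27728902-27729201 (minus strand) for Spdef. Capitals mark matches to TATAAA (a core promoter element), TTTATG (a CDX2-type site), TGACGTG (the core bound by ATF and CREB3 family factors) or CAGCTG (an E-box of the kind bound by Atoh1), searched on both strands.
Muc2: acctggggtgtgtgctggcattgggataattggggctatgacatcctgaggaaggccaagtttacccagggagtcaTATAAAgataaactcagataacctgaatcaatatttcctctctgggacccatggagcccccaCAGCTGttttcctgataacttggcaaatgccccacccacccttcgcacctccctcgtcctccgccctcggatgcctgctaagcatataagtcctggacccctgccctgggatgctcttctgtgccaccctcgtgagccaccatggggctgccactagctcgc
Spdef: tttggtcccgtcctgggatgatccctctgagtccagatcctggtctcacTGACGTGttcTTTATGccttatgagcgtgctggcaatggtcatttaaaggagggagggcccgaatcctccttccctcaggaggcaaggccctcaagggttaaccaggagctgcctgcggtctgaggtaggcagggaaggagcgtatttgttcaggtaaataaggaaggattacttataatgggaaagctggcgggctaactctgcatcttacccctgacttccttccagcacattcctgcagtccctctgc
Positions count from the gene's start and give the leftmost base of a match. The Muc2 window held TATAAA at -174 and CAGCTG at -112, and the Spdef window held TGACGTG at -201 and TTTATG at -191. These motifs do not overlap each other in either window. Promoter windows were given for 4 of the 10 genes. Of the other windows, that of Fcgbp (chr7:28070986-28071285, plus strand) held CAGCTG at -208, and that of Agr2 (chr12:35992675-35992974, plus strand) held TTTATG, on the reverse strand, at -47. Across all 32851 mouse promoter windows of this length TATAAA was present in 13.6%, TTTATG in 11.9%, TGACGTG in 2.01% and CAGCTG in 16.3%. The GGAT core bound by Spdef, present in all 4 windows, was in 79.6% of all windows and is not capitalised. A match describes letters only.

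In RingKO, called goblet cell genes went in both directions. By the authors' deposited adjusted p (below 0.05, over all 18376 entries) 1 of 10 rose, Spink4, where 3.14% of all entries rose, and 1 of 10 fell, Retnlb, where 1.76% fell. The authors' deposited table gave the members a median log2 fold change of -0.10, beside 0.02 over all entries and -0.21 over the 7939 abundant entries, those whose 2 group means averaged 50 normalized reads or more. Both RingKO libraries lay above both WT libraries for 2 members (Spink4 and Tff3) and below them for 3 (Clca3, Retnlb and Zg16), while among abundant entries the same held for 14.5% above and 51.9% below. Under TMM scaling, a check added after seeing the data, the 5 members were the same and the shares of abundant entries were 22.3% above and 35.4% below. The values that follow are normalized reads on the authors' scale.

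**Figure D1:**
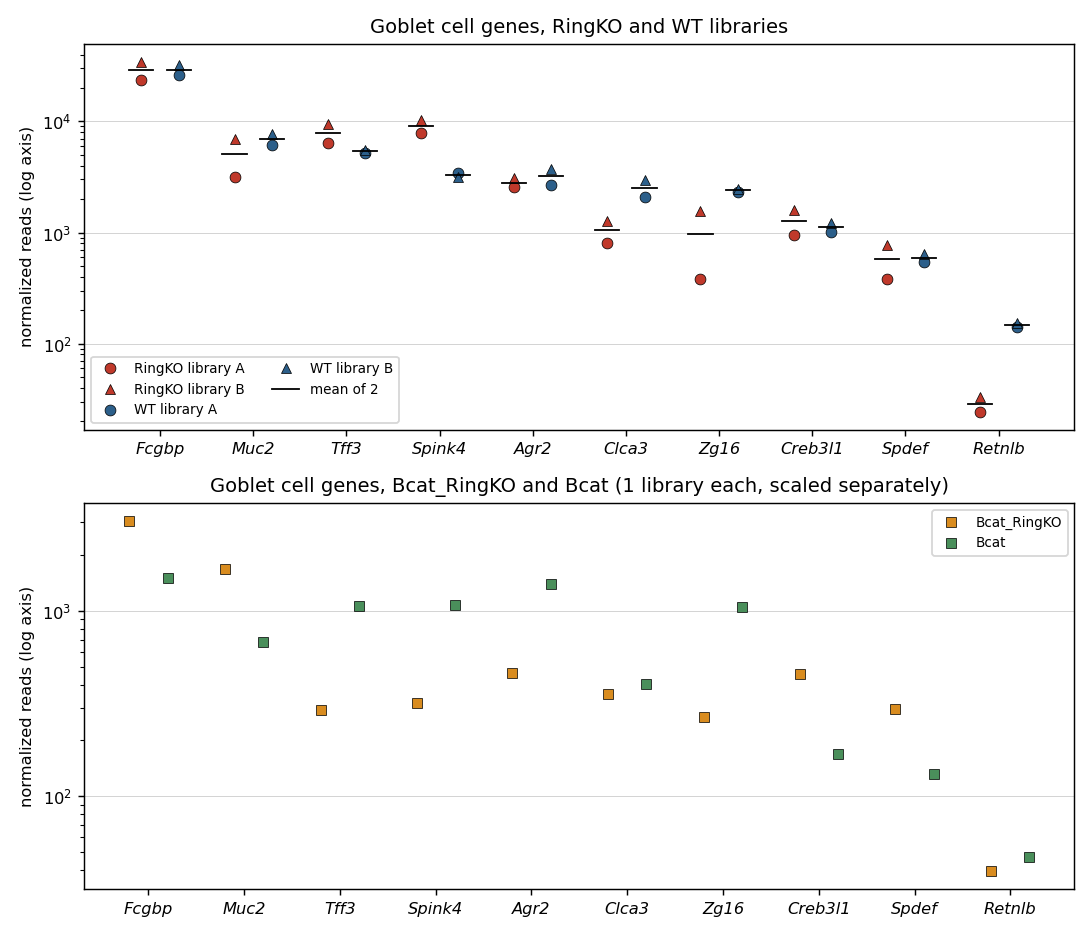
Normalized reads of the 10 goblet cell genes on a log axis, not divided by transcript length. Upper panel, RingKO (left of each pair) and WT (right) with circles for library A, triangles for library B and a bar for the mean of 2. Lower panel, Bcat_RingKO (left) and Bcat (right), 1 library each, scaled apart from the upper panel. RingKO lies wholly above WT for Spink4 and Tff3 and wholly below it for Clca3, Zg16 and Retnlb.

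The structural genes of the mucus layer were all expressed, and none of them changed by the authors' test. Muc2, the gel-forming mucin, had 3146 and 6962 normalized reads in RingKO libraries A and B, against 6154 and 7669 in WT libraries A and B. RingKO library A had the lowest level and RingKO library B fell between the WT libraries, so the groups overlapped. The edgeR estimate of the log2 fold change was -0.25 ± 0.35 (SE, n = 2 libraries each, Benjamini-Hochberg adjusted p = 0.697, edgeR quasi-likelihood test). Fcgbp, an IgG Fc-binding mucus protein that is cross-linked with the Muc2 gel, had the second most normalized reads of all entries in both groups, not counted per length, with 23697 and 34597 normalized reads in RingKO. Its WT mean was 29305, and its most even split gave 26137 and 32471 in the WT libraries. The WT mean of Fcgbp had 4 whole-read solutions, and the groups overlapped under each of them. Its edgeR log2 fold change was 0.19 ± 0.25 (adjusted p = 0.686).

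Clca3, which the RefSeq annotation of GRCm38 calls Clca1, encodes a secreted metalloprotease that processes Muc2. It had 803 and 1282 normalized reads in RingKO, against 2096 and 2962 in WT. Both RingKO libraries lay below both WT libraries. The authors' deposited table gave a log2 fold change of -1.28 with an adjusted p of 0.0610, while edgeR on the recovered reads gave -1.08 ± 0.26 with an adjusted p of 0.0317. The edgeR log2 fold change of Clca3 was -0.83 without WT library B and -1.31 without WT library A. Zg16, a lectin that binds bacterial cell walls in the mucus, had 385 and 1551 normalized reads in RingKO, against 2337 and 2471 in WT. The WT libraries were nearly alike, both RingKO libraries lay below them, and RingKO library A was far lower than library B. The authors' deposited table gave Zg16 a log2 fold change of -1.31 with an adjusted p of 0.195, and edgeR gave -1.11 ± 0.52 with an adjusted p of 0.225.

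Among the small secreted peptides the 2 called changes went in opposite directions. Spink4, a secreted Kazal-type protease inhibitor of goblet cells, had 7881 and 10237 normalized reads in RingKO, against 3456 and 3134 in WT. Every RingKO library was more than 2-fold above every WT library, and the authors' deposited table gave a log2 fold change of 1.46 with an adjusted p of 9.66e-05. The edgeR log2 fold change was 1.65 ± 0.20 (adjusted p = 0.00163). Retnlb, a resistin-like peptide with antibacterial action, had few reads, with 24.2 and 33.0 normalized reads in RingKO, from 17 and 23 reads, against 140 and 152 in WT, from 219 and 216 reads. The groups were far apart, and the authors' deposited table gave a log2 fold change of -2.29 with an adjusted p of 1.93e-07. The edgeR log2 fold change was -2.16 ± 0.24 (adjusted p = 0.00105). Tff3, the trefoil peptide of goblet cells that takes part in mucosal repair, had 6380 and 9406 normalized reads in RingKO, against 5224 and 5553 in WT. Both RingKO libraries were above both WT libraries, but the authors' deposited table gave an adjusted p of 0.637 at a log2 fold change of 0.55, and edgeR gave 0.74 ± 0.22 with an adjusted p of 0.0706.

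Agr2, a protein disulfide isomerase of the endoplasmic reticulum needed for Muc2 production, had 2551 and 3070 normalized reads in RingKO, against 2691 and 3701 in WT. The groups overlapped, and the edgeR estimate was 0.00 ± 0.20 on the log2 scale (adjusted p = 0.992). Both transcription factors also overlapped between groups. Spdef, the ETS-family factor of goblet and Paneth cell maturation, had 382 and 778 normalized reads in RingKO, against 539 and 643 in WT. RingKO library A had the lowest level of Spdef and RingKO library B the highest. Creb3l1, a membrane-bound factor released by proteolysis that supports secretion in bone-forming cells of the mouse, had 949 and 1608 normalized reads in RingKO, against 1021 and 1219 in WT. It too was lowest in RingKO library A and highest in RingKO library B. The edgeR log2 fold changes were 0.17 ± 0.30 for Spdef (adjusted p = 0.766) and 0.39 ± 0.25 for Creb3l1 (adjusted p = 0.385).

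Divided by transcript length, the levels of the members differed widely. Spink4 had 4798 and 6773 RPKM (reads per kilobase, scaled to the library total) in RingKO, against 2017 and 1780 in WT. Tff3 had 3128 and 5011 in RingKO, against 2455 and 2539 in WT, on the same per-length scale. Spink4 thus stood above Tff3 in both RingKO libraries and below it in both WT libraries. Retnlb was lowest per length in all 4 libraries, at 8.39 and 12.5 RPKM in RingKO and 46.6 and 49.3 in WT. Muc2 had no matched transcript length and has no place in this order.

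All 10 goblet cell genes had more normalized reads in RingKO library B than in RingKO library A, a difference known when the genes were chosen and given here as a description. Among abundant entries, 36.2% were higher in library B. The fold of library B over library A was 4.03 for Zg16, 2.21 for Muc2 and 2.04 for Spdef. It was 1.69 for Creb3l1, 1.60 for Clca3, 1.47 for Tff3 and 1.46 for Fcgbp. The smallest folds were 1.37 for Retnlb, 1.30 for Spink4 and 1.20 for Agr2. The fold of Retnlb rested on 23 and 17 reads in libraries B and A. The median log2 ratio of the members was 0.62, beside -0.12 over abundant entries, whose SD was 0.446. The members held percentiles from 84.5 to 99.7 in that distribution. In WT, 9 of 10 members were higher in library B, with a median log2 ratio of 0.26 beside 0.04 over the same entries. Fcgbp was counted there by its most even whole-read solution. Spink4 was the exception in WT, at -0.14. The share of abundant entries higher in WT library B is not given, so that count is not set against a general rate. By transcript length, the median WT log2 ratio over abundant entries ran from -0.19 under 1 kb to 0.10 over 4 kb.

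**Figure D2:**
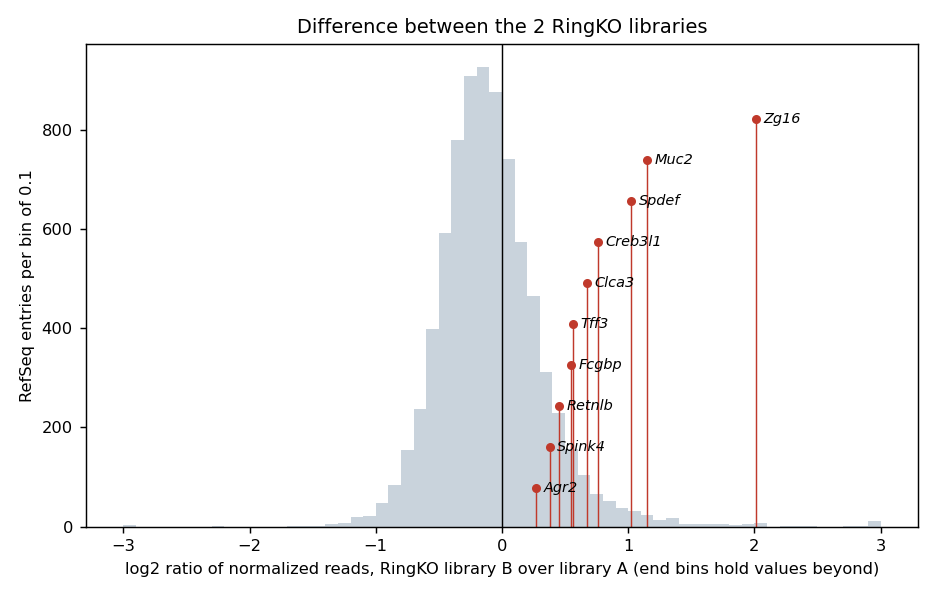
Histogram of the log2 ratio of normalized reads, RingKO library B over RingKO library A, for the 7939 abundant entries (grey, entries per bin), with each goblet cell gene as a red stem of arbitrary height. All 10 lie right of 0, from Agr2 to Zg16 at a 4.03-fold difference.

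Together the 10 genes took 1.12% (exact 95% Clopper-Pearson interval 1.10 to 1.13) of the reads of RingKO library A and 1.83% (1.81 to 1.84) of library B, against 1.15% (1.15 to 1.16) and 1.35% (1.34 to 1.36) of WT libraries A and B. The WT shares rest on the most even of the 4 whole-read solutions of Fcgbp, and with it the RingKO libraries lay on both sides of WT. Without Fcgbp the members summed to 5439 and 9174 RPM (reads scaled to the library total) in RingKO libraries A and B. The sums were 5480 and 6200 RPM in WT libraries A and B. Intervals of this kind cover counting error only, since sequencing reads without molecular identifiers are not independent molecules. Markers of other cell types moved between the RingKO libraries as well. Of the abundant stem cell markers, 2 of 15 were higher in RingKO library B than in A, and their summed normalized reads were 19407 in B and 35771 in A. Of the Paneth cell markers 12 of 13 were higher in B, with sums of 59000 and 45461 in B and A, and of the enterocyte markers 13 of 16, with sums of 16341 and 13255. Of 17 further abundant goblet genes, 16 were higher in B. Immune markers were few in all 4 libraries, with sums of 136 and 230 normalized reads in RingKO A and B and 112 and 100 in WT A and B. The part of cell content, library or RNA quality in the RingKO B to A difference was not tested.

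Leaving out either RingKO library changed which goblet cell genes were called. Without RingKO library A, edgeR called 5 members higher (Fcgbp, Spink4, Tff3, Spdef and Creb3l1), where 15.9% of tested entries were called higher, and 3 lower (Clca3, Retnlb and Zg16), where 11.0% were. Without RingKO library B it called 2 higher (Spink4 and Tff3), where 11.0% were called higher, and 5 lower (Muc2, Clca3, Retnlb, Zg16 and Spdef), where 4.90% were. With all 4 libraries edgeR called 1 higher (Spink4), beside 9.91% of tested entries, and 2 lower (Clca3 and Retnlb), beside 2.95%. The edgeR log2 fold change of Zg16 was -0.41 without library A and -2.49 without library B. That of Muc2 was 0.23 and -0.99, and that of Spdef was 0.62 and -0.48, in the same order. Spink4 stayed higher (1.86 and 1.40) and Retnlb stayed lower (-1.92 and -2.44) without either library. In these refits the lone RingKO library was assumed to vary like the WT libraries.

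**Figure D3:**
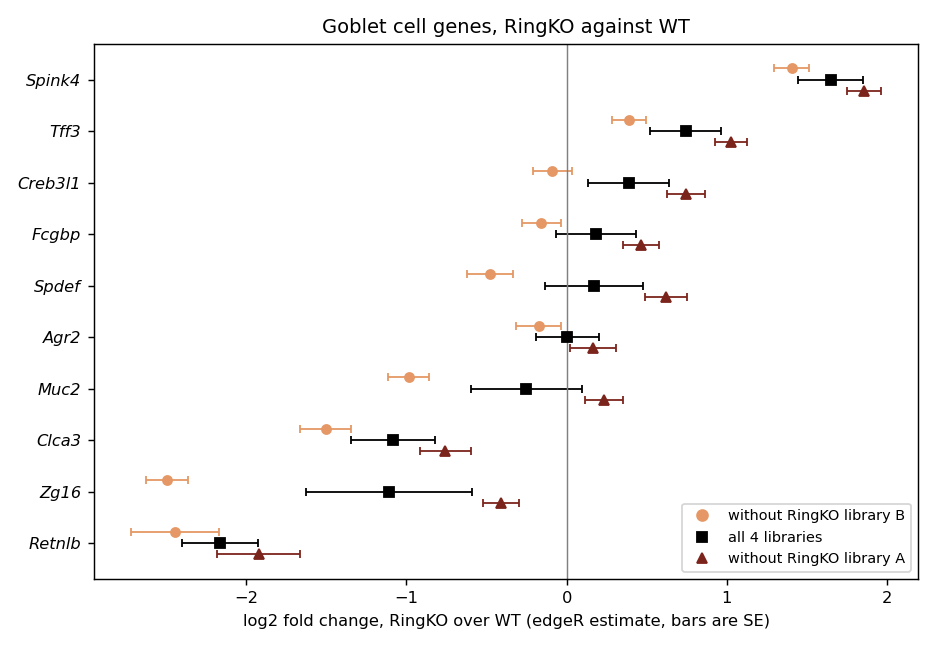
The edgeR log2 fold change of RingKO over WT for each goblet cell gene, with bars of 1 SE, from all 4 libraries (black squares), without RingKO library B (orange circles) and without RingKO library A (dark triangles). Spink4 and Tff3 lie right of 0 and Clca3, Zg16 and Retnlb left of 0 in all 3 fits. Muc2, Spdef, Fcgbp, Agr2 and Creb3l1 cross 0. Fcgbp is drawn from its most even WT solution.

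The scale of the comparison also bears on the members near 0. On the authors' scale the median log2 fold change over abundant entries was -0.21, and under edgeR's TMM scaling (trimmed mean of M-values) it was -0.01 over tested entries. Fcgbp, Spdef and Agr2 had deposited log2 fold changes of -0.01, -0.02 and -0.19 in the authors' deposited table and edgeR estimates of 0.19, 0.17 and 0.00. No direction is therefore given for these 3 genes.

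Other genes of the goblet programme were mostly not called. Of 20 further goblet genes 0 rose and 1 fell by the authors' deposited adjusted p, namely Tpsg1, a transmembrane tryptase (log2 fold change -1.26, adjusted p = 0.0132). Tpsg1 had 68.2 and 151 normalized reads in RingKO, against 253 and 276 in WT. Of 14 regulators of secretory fate 0 rose and 1 fell, Neurog3, which commits cells to the enteroendocrine lineage and is also on the enteroendocrine list (log2 fold change -3.27 and adjusted p of 1.56e-10 in the authors' deposited table). Atoh1, picked after its values were seen, had 173 and 227 normalized reads in RingKO, against 242 and 303 in WT. The authors' deposited table gave Atoh1 a log2 fold change of -0.44 with an adjusted p of 0.598, so it was not called.

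Of 7 other mucin genes 0 rose and 2 fell in the authors' deposited table, the membrane mucin Muc4 (log2 fold change -0.66, adjusted p = 0.0256) and the gastric gel-forming mucin Muc5ac (-1.41, adjusted p = 0.0193). Of 21 genes for mucin glycosylation and its sugar precursors 0 rose and 1 fell, Gmds, which makes the precursor of GDP-fucose (-0.66, adjusted p = 0.0192 in the authors' deposited table). Of 24 genes of the endoplasmic reticulum and secretory pathway 1 rose, the prolyl isomerase Fkbp11 (1.35, adjusted p = 4.47e-05 in the authors' deposited table), and 0 fell. Fkbp11 had 183 and 217 reads in RingKO, against 183 and 152 reads in the deeper WT libraries. Of 16 relatives of the members 0 rose and 3 fell in the authors' deposited table: Agr3 (-3.35), a relative of Agr2, and 2 genes of the Clca family. These 2, listed as Clca2 (-1.62) and Clca4 (-1.44), are Clca3a2 and Clca3b in the RefSeq annotation of GRCm38, and like Clca3 they lie on chromosome 3. Reads shared between similar Clca genes could have been split by a counting step that the labels do not describe.

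Markers of other cell types changed in the same comparison. Of 15 Paneth cell markers 10 rose in the authors' deposited table and 0 fell, with sums of 45461 and 59000 normalized reads in RingKO, against 20818 and 13463 in WT. The most abundant of them, the lysozyme gene Lyz1, whose reads may be shared with its close copy Lyz2, had 12975 and 18026 normalized reads in RingKO, against 6686 and 4447 in WT. Spink4 and Tff3 were higher in the same libraries, and the part of Paneth cell content in their levels was not tested. Of 18 enteroendocrine markers 0 rose and 11 fell, of 12 tuft cell markers 0 rose and 4 fell, of 17 enterocyte markers 1 rose and 4 fell, and of 16 stem cell markers 0 rose and 5 fell. Of 12 immune markers 0 were called in either direction, and of 11 stromal markers 0 rose and 1 fell. The most abundant immune marker, Cd68, had 81.0 and 154 normalized reads in RingKO, against 62.0 and 59.9 in WT.

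Between Bcat_RingKO and Bcat, the goblet cell genes split by direction. With 1 library each there was no replicate check, the authors' deposited p-values for this pair were not used, and no test was run. A gene was counted as higher or lower past 2-fold, and the 95% intervals are exact conditional binomial intervals of counting error. Of 10 members 4 were over 2-fold higher, 4 over 2-fold lower and 2 within 2-fold, and among the 7365 abundant entries of this pair (mean of 50 or more) 21.9% were over 2-fold higher and 7.90% over 2-fold lower. Retnlb was under that mean. The median log2 ratio was -0.25 over the 10 members and 0.23 over those entries. Together the members took 0.362% (exact 95% Clopper-Pearson interval 0.356 to 0.368) of the reads of Bcat_RingKO and 0.365% (0.353 to 0.377) of those of Bcat. Fcgbp supplied 6854 of the 16184 member reads in Bcat_RingKO, against 674 of 3365 in Bcat. Without Fcgbp the members summed to 2087 RPM (reads scaled to the library total) in Bcat_RingKO, against 2918 RPM in Bcat, so the near-equal total rests on Fcgbp.

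The higher members were Muc2, Fcgbp, Spdef and Creb3l1. Muc2 had 1681 normalized reads in Bcat_RingKO, against 678 in Bcat, a ratio of 2.48 (2.21 to 2.80). Fcgbp had 3065 in Bcat_RingKO, against 1507 in Bcat, a ratio of 2.03 (1.88 to 2.20). Both transcription factors were higher as well. Spdef had 296 in Bcat_RingKO, against 132 in Bcat, a ratio of 2.24 (1.72 to 2.98), and the Bcat value rested on 59 reads. Creb3l1 had 457 in Bcat_RingKO, against 170 in Bcat, a ratio of 2.69 (2.13 to 3.44). Under TMM scaling of the pair, which lowered every ratio by 0.22 on the log2 scale, Fcgbp (1.75) and Spdef (1.93) came under 2-fold.

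The lower members were Zg16, Tff3, Spink4 and Agr2. Zg16 had 268 normalized reads in Bcat_RingKO, against 1055 in Bcat, a ratio of 0.254 (0.225 to 0.287). Tff3 had 292 in Bcat_RingKO, against 1058 in Bcat, a ratio of 0.277 (0.245 to 0.312). Spink4 had 317 in Bcat_RingKO, against 1078 in Bcat, a ratio of 0.294 (0.262 to 0.331). The intervals of these ratios lie far below 1. Agr2 had 465 in Bcat_RingKO, against 1395 in Bcat, a ratio of 0.333 (0.302 to 0.369). Clca3 had a ratio of 0.883 (0.75 to 1.04) and Retnlb one of 0.838 (0.516 to 1.42), and both intervals include equality. Under TMM scaling the ratio of Clca3 was 0.760 (0.646 to 0.898), an interval below 1. Spink4 and Tff3 were higher in both RingKO libraries than in the WT libraries and lower in Bcat_RingKO than in Bcat, and the difference between these contrasts was not tested.

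The 4 lower members were short transcripts and the higher members with a matched length were long ones. Spink4, Tff3, Zg16 and Agr2 are 397, 493, 636 and 784 bases long, while Spdef, Creb3l1 and Fcgbp are 1921, 2603 and 7928 bases. Over all abundant entries the ratio of Bcat_RingKO to Bcat rose with length. Its median on the log2 scale was -0.76 for the 502 entries under 1 kb, -0.09 from 1 to 2 kb, 0.30 from 2 to 4 kb and 0.58 for the 2313 entries over 4 kb. Relative to the median of their own length class, the log2 ratios were -1.22 for Zg16, -1.10 for Tff3, -1.01 for Spink4 and -0.83 for Agr2, and 1.23 for Spdef, 1.11 for Creb3l1 and 0.44 for Fcgbp. Each thus kept its direction at a smaller size, except Spdef, whose class median lay below 0. Retnlb, at 696 bases, lay 0.45 above its class median, and Clca3, at 3655 bases, 0.48 below its own (log2 difference -0.48). In RingKO against WT the class medians of the deposited log2 fold change ran from -0.04 under 1 kb to -0.28 over 4 kb. The part of transcript length in the ratios of the members was not tested.

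**Figure D4:**
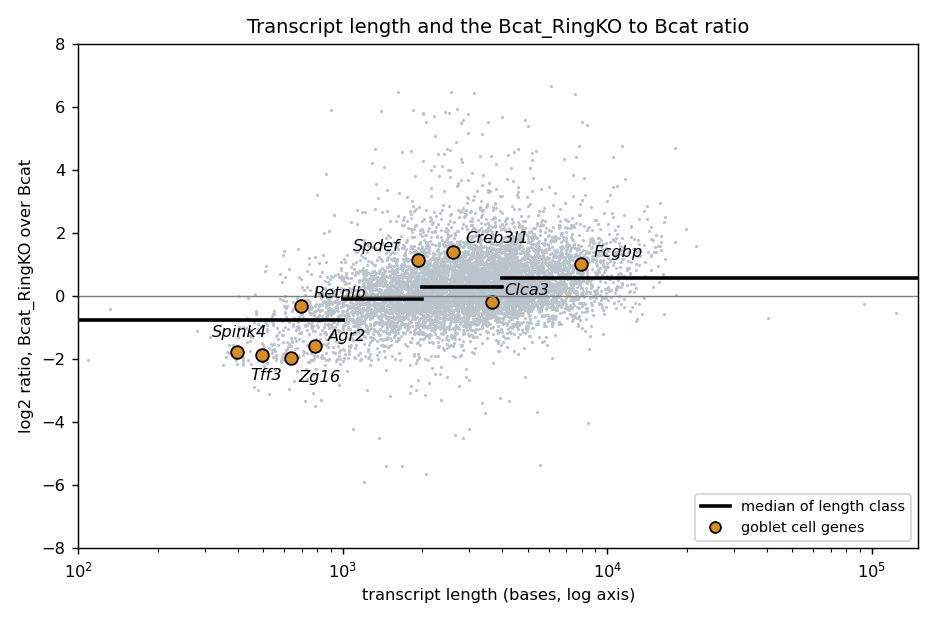
The log2 ratio of Bcat_RingKO over Bcat against transcript length (bases, log axis) for abundant entries (grey), with the median of each length class as a black bar and the 9 goblet cell genes with a matched length as orange points. Spink4, Tff3, Zg16 and Agr2 lie low among short transcripts, and Spdef, Creb3l1 and Fcgbp lie high among longer ones.

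Among other lists in this pair, 4 of 14 further abundant goblet genes were over 2-fold higher and 2 were over 2-fold lower. Of 10 abundant regulators of secretory fate 4 were over 2-fold higher and 0 lower. Neurog3 was under the mean of 50 and not among them. It had 12 reads in Bcat_RingKO, against 29 in Bcat, a ratio of 0.0828 (0.0385 to 0.167). Elf3, also under that mean, had 83 reads in Bcat_RingKO, against 8 in Bcat, a ratio of 2.08 (1.01 to 4.97). Of 11 abundant Paneth cell markers 10 were over 2-fold lower and 1 over 2-fold higher in Bcat_RingKO. Of 16 abundant enterocyte markers 11 were over 2-fold lower and 0 higher. The lower Paneth cell markers were 372 (Defa26) to 1263 (Lyz1) bases long, and the higher one, Habp2, 2815. The part of transcript length in these counts was not tested. Nor was the part of Paneth cell and enterocyte content in the levels of the goblet cell genes.

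The genes whose pattern over the 6 libraries was nearest to that of Muc2 were sought among 7151 symbols, those abundant in both tables plus all members, by the root mean square difference of log2 RPM after centring each gene. The 8 nearest were Gltscr1 (0.28), Nfkbid (0.32), Cit (0.33), Rrbp1 (0.34), Creb3l1 (0.35), Scaf1 (0.35), Ints1 (0.36) and Gcn1l1 (0.36). Creb3l1 was thus the only goblet cell gene among them, at rank 5. Creb3l1 had 229 and 422 RPM in RingKO, 236 and 275 in WT, 228 in Bcat_RingKO and 82.4 in Bcat. Spdef came at rank 67, Clca3 at 312 and Fcgbp, by its most even WT solution, at 862. Agr2, Tff3, Zg16, Retnlb and Spink4 came at ranks 2707, 4927, 5170, 5245 and 5927. All 8 nearest genes were lowest in the Bcat library, and their transcripts were 2039 to 9514 bases long. The part of transcript length in this likeness was not tested.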

How the data were processed

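Messenger RNA libraries were made with the TruSeq RNA v2 kit from RNeasy Plus Micro extracts, per the labels' protocols. TopHat, DESeq and mm9 are named, without versions, by the submitters' processing notes. How reads were counted, with which annotation and whether by strand is not given in the sources used here. The authors deposited normalized read coverage (signal) per RefSeq entry, as group means for RingKO and WT (18376 entries) and as single libraries for Bcat_RingKO and Bcat (17076 entries). Each table has its own scaling, and levels are set side by side within a table only, except that the search for genes nearest to Muc2 used reads scaled to library totals over all 6 libraries. The authors also deposited a fold (ratio) and its log2 value for each entry, p-values for both tables, and adjusted p-values for RingKO against WT. The deposited p-values of Bcat_RingKO against Bcat were not used, since each group is 1 library. The main call was the authors' deposited adjusted p under 0.05.

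From the values, each deposited signal is reads plus 1 divided by a size factor, so whole reads per library were recovered from the group means. All RingKO means had 1 solution, and 15 WT means had several, of which the most even was used. For Bcat_RingKO and Bcat 100% of values gave whole reads within 0.001. Depth ran from 922153 to 6753789 reads, and the shallow Bcat library limits the precision of its ratios. Recovered reads were tested with edgeR 4.0.16 (R 4.3.3, TMM, filterByExpr, quasi-likelihood), with DESeq2 1.42.0 and limma 3.58.1 (limma-trend) as alternatives, and the scripts were checked on simulated data. Fold changes printed with an SE are edgeR estimates. RPM values used a pseudocount of 1 for pattern distances. Transcript lengths came from the GRCm38 annotation, matched for 99.3% and 99.4% of the abundant entries (mean of 50 or more).

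The 10 members and all gene lists were chosen with earlier results of these data known. Named genes were the members, those called in each list (up to 4), the targeted genes, Lgr5 and Olfm4, the most abundant marker of a cell type list and the 8 nearest to Muc2, and markers on which no result turned are given as counts only. The p-values set group differences against the spread between libraries, which may be technical because the number of mice is not given.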

Additional observations from a re-analysis of the deposited data

Results flagged for a closer look

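Spink4 and Tff3 went opposite ways in the 2 contrasts. Every RingKO library was above every WT library for both genes, while the ratio of Bcat_RingKO to Bcat was 0.294 for Spink4 and 0.277 for Tff3, from 1 library each. The difference between the contrasts was not tested. Both transcripts are under 1 kb, a class whose median ratio in the Bcat pair also lay below 1, and the part of length was not tested.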

How the results depend on the processing

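No paired analysis was possible because the deposited columns carry no replicate numbers, and the recovered libraries cannot be matched to them. With the authors' table as the base, the count of higher members (1) became 2 under DESeq2 (Spink4 and Tff3), and the count of lower members (1) became 2 (Clca3 and Retnlb) at an adjusted p under 0.1, under edgeR with TMM, with DESeq2 size factors, without a filter or with reads summed per symbol, under DESeq2, and under limma-trend with a pseudocount of 1 or 4. Under edgeR with TMM 9.91% of tested entries were called higher and 2.95% lower. Shares of all entries under the other settings are not given, so the counts there are not set against a general rate. Fits without 1 library leave a group of 1 library, so their calls are not given. Only their log2 fold changes are given, with an SE where they are plotted. Under TMM scaling 2 members were over 2-fold higher in Bcat_RingKO. On the authors' scale 0 were past 4-fold higher and 0 past 4-fold lower, although under TMM the ratios of Zg16 (0.219) and Tff3 (0.238) are below 0.25.

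Against the deposited signs, Fcgbp came to 0.19 (edgeR), 0.19 (DESeq2 size factors), 0.14 (no filter), 0.17 (DESeq2) and 0.18 (summed). In the same order Spdef came to 0.17, 0.18, 0.13, 0.15 and 0.17. Agr2 came to 0.0048 (edgeR), 0.013 (DESeq2 size factors) and 0.0022 (summed). These reversals are within 1 SE of 0, and the cause was not tested. Over the fits without 1 library the log2 fold change ranged from -0.99 to 0.23 for Muc2, -0.16 to 0.46 for Fcgbp, -0.21 to 0.23 for Agr2, -0.48 to 0.62 for Spdef and -0.089 to 0.74 for Creb3l1. The 5 members whose groups do not overlap were the same under TMM and total reads, a check chosen after seeing the data, where abundant entries lay above in 22.3% and 21.7% and below in 35.4% and 37.8%.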
